A study of Homo sapiens with 6 samples.

Results

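The let-7 family is described here by 8 human (hsa) mature microRNAs, hsa-let-7a-5p, hsa-let-7b-5p, hsa-let-7c-5p, hsa-let-7d-5p, hsa-let-7f-5p, hsa-let-7g-5p, hsa-let-7i-5p and hsa-miR-98-5p, written below without the prefix. They were taken by name from the 2588 mature miRNAs that were counted in each library. let-7e-5p, which belongs to the same family, was left out of the set and is given only for comparison. Small RNA was sequenced from A549, a line of lung carcinoma epithelial cells, and from BEAS-2B, a non-tumour line from bronchial epithelium, both labelled as wild type (WT). Each line was left untreated (control) or was exposed for 48 h to TGF-β1, the cytokine used to give epithelial cells mesenchymal and matrix-producing traits, at 1 or 5 ng/mL in low-serum medium. One library was made for each line and dose, 6 in all, so a control is a single untreated culture of its line and no group had a replicate. Each line is a single established culture kept in the same medium, and neither is a primary lung cell.

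let-7 miRNAs are cut from hairpin precursors, and the RNA-binding protein LIN28 can block that step. The mature strand loads into Argonaute and represses messenger RNAs that pair with its seed, the bases near the 5′ end. Known targets include RAS genes, HMGA2 and MYC, and the family is widely described as abundant in differentiated epithelium and reduced in many tumours.

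The mature sequences are shown because the members differ so little that the counts of one could hold reads of another. They were found in RefSeq (GRCh38.p14) for 8 of 8 members. Each is written 5′ to 3′, with the seed, bases 2 to 8, in capitals, and let-7e-5p is added as the relative that was left out.
let-7a-5p: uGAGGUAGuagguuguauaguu
let-7b-5p: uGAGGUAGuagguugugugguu
let-7c-5p: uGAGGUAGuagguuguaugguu
let-7d-5p: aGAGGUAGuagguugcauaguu
let-7f-5p: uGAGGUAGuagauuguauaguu
let-7g-5p: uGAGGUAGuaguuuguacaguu
let-7i-5p: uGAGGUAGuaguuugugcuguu
miR-98-5p: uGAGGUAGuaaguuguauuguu
let-7e-5p: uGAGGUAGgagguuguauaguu

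The seed was the same in 8 of 8 members, and each mature strand was 22 bases long. Among all 2370 mature human miRNAs in that table, 11 had this seed, and the ones outside the family names were miR-4458 and miR-4500, with between 0 and 4 reads per library. Counted from 1 at the 5′ end of let-7a-5p, let-7c-5p carried A19G and let-7f-5p carried G12A. let-7b-5p carried A17G and A19G, let-7d-5p U1A and U16C, let-7g-5p G12U and U18C, and miR-98-5p G11A and A19U. let-7i-5p stood farthest from let-7a-5p, with G12U, A17G, U18C and A19U. Of the 28 pairs of members, 3 differed at 1 base and the most distant pair at 6. How the authors placed reads that match several members was not stated in the sources used here, so values of let-7a-5p, let-7b-5p, let-7c-5p and let-7f-5p, which are linked by single-base steps, are uncertain relative to one another.

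The members come from 7 chromosomes. On chromosome 9 the hairpins of let-7a-1 (chr9:94175957-94176036), let-7f-1 (chr9:94176347-94176433) and let-7d (chr9:94178834-94178920) follow each other on the plus strand within an intron of the lincRNA AL158152.2, with 310 bases between the first pair and 2400 before let-7d. On chromosome 22, let-7a-3 (chr22:46112749-46112822) and let-7b (chr22:46113686-46113768) lie 863 bases apart in an exon of MIRLET7BHG, their host lincRNA. let-7c (chr21:16539828-16539911) lies in an intron of MIR99AHG, 658 bases downstream of miR-99a. let-7a-2 (chr11:122146522-122146593) lies on the minus strand in an intron of MIR100HG, between miR-100 and miR-125b-1. miR-98 (chrX:53556223-53556341) and let-7f-2 (chrX:53557192-53557274) share an intron of HUWE1, a ubiquitin ligase gene, on the minus strand. let-7g (chr3:52268278-52268361) lies in an intron of WDR82 on the minus strand. let-7i (chr12:62603686-62603769) lies in an intron of the lincRNA AC048341.1 and overlaps an exon of LINC01465 on the opposite strand. Positions are from RefSeq and host genes from GENCODE release 29, both on GRCh38, since the count files hold no coordinates. let-7a-5p can therefore come from 3 hairpins and let-7f-5p from 2, and their mature counts cannot be assigned to one locus.

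Library totals ran from 633318 to 900424 reads. A count of 0 allows up to 3 reads, and intervals below cover counting error only, since reads without molecular identifiers are not independent molecules. miR-21-5p alone took 35.4% of reads in the BEAS-2B control and from 47.6% to 57.2% in the other 5 libraries. The scaling factor (trimmed mean of M-values, TMM) of that control was 1.32 against 0.829 to 1.02 elsewhere, and total-count scaling moved the ratios to that control by -0.43 and -0.41 (log2, 1 and 5 ng/mL), against -0.14 and 0.16 in A549. Among 6 epithelial marker miRNAs of the miR-200 and miR-205 groups, the summed count was 219 to 384 in A549 against 297 to 472 in BEAS-2B. miR-200b-3p led both lines, and miR-205-5p had between 0 and 2 reads. Of 10 markers of other cell types 3 were at 0 everywhere, and their sum, 1030 to 1297 reads in A549 against 217 to 448 in BEAS-2B, was mostly miR-126-3p. The part of these differences in the results below was not tested.

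By read count, let-7i-5p was the leading member in A549 and came below let-7f-5p in BEAS-2B. Reads of different sequences were not calibrated to molecule numbers, so orders and shares of members here are those of reads. Its counts were 53132, 59819 and 50834 in A549 at 0, 1 and 5 ng/mL, and 22659, 16729 and 16180 in BEAS-2B. All 3 A549 libraries lay above all 3 BEAS-2B libraries. As a share of the summed counts of the 8 members, the family sum, let-7i-5p held 62.0%, 65.1% and 60.9% in A549 against 22.9%, 24.9% and 24.6% in BEAS-2B. A share of counts within a library does not change with the scaling factor of that library. let-7e-5p is outside that sum, and with it the shares were 58.9% to 63.2% and 22.4% to 24.2%.

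**Figure D1:**
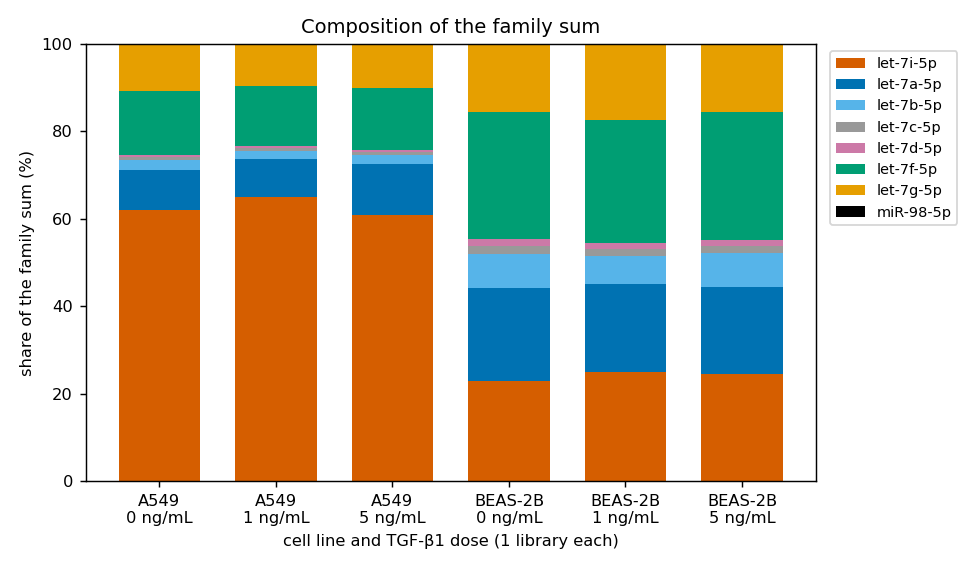
Stacked bars give the share of each of the 8 members in the family sum, in percent, for the 6 libraries. The let-7i-5p block fills 60.9% to 65.1% of the A549 bars and 22.9% to 24.9% of the BEAS-2B bars.

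In BEAS-2B, let-7f-5p came first in every library, with 28514, 18963 and 19313 reads at 0, 1 and 5 ng/mL and 28.2% to 29.3% of the family sum. let-7i-5p, let-7a-5p and let-7g-5p followed in that order in all 3. Each of the first 3 overlapped the next in normalised count across doses. Within a library the gaps were larger than counting error, with let-7i-5p over let-7f-5p at 0.795, 0.882 and 0.838 and let-7i-5p over let-7a-5p at 1.07, 1.24 and 1.24, each with a 95% interval that excluded 1. let-7b-5p stood apart below them at 6.53% to 7.77%, let-7c-5p and let-7d-5p overlapped each other, and miR-98-5p was lowest.

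In A549 the order was let-7i-5p, let-7f-5p, let-7g-5p and let-7a-5p, let-7b-5p, let-7c-5p, let-7d-5p and miR-98-5p. let-7g-5p and let-7a-5p overlapped and changed places at 5 ng/mL, where let-7a-5p had 9667 reads and let-7g-5p 8148. The other neighbours did not overlap. The mean normalised count of let-7i-5p was 4.42 times that of let-7f-5p, and let-7f-5p was 1.43 times let-7g-5p. miR-98-5p had 233, 226 and 189 reads in A549 against 305, 205 and 217 in BEAS-2B. It never reached a normalised count of 255, which is a normalised data value (ND, log2 of normalised count + 1) of 8, the expression minimum of the study's criteria, while the other 7 members reached it in every library.

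**Figure D2:**
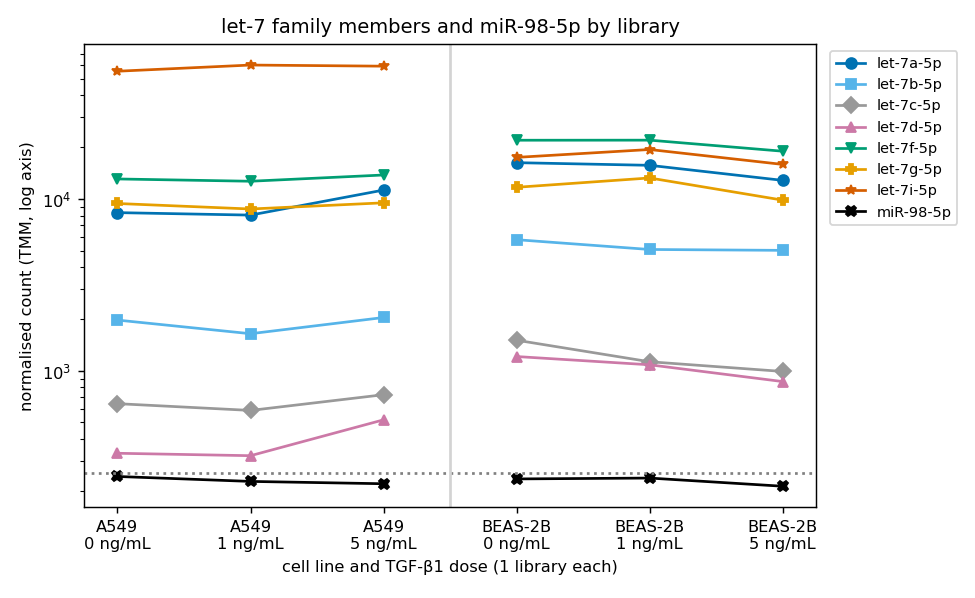
TMM-normalised count of each member (log axis) in the 6 libraries, with lines joining the doses of a cell line and a dotted line at 255. let-7i-5p lies between 55286 and 60062 in A549 and between 15863 and 19368 in BEAS-2B, and let-7d-5p has the widest range over dose in A549, 1.62-fold.

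The comparison between cell lines asked whether the family differs between A549 and BEAS-2B. With a single tumour line and a single non-tumour line, tumour origin cannot be told apart from tissue of origin or other differences between them. let-7i-5p was higher in A549 by 1.67, 1.63 and 1.90 on the log2 scale at 0, 1 and 5 ng/mL, about 3.17-fold without TGF-β1. let-7b-5p, let-7d-5p, let-7c-5p, let-7a-5p and let-7f-5p were lower in A549 at each dose. let-7b-5p had 1894, 1635 and 1753 reads in A549 against 7521, 4383 and 5116 in BEAS-2B, a log2 ratio of -1.55, -1.63 and -1.30. let-7d-5p had 318, 319 and 445 reads in A549 against 1572, 935 and 882 in BEAS-2B, and its log2 ratio went from -1.87 without TGF-β1 to -0.74 at 5 ng/mL. Neither member overlapped between the lines.

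let-7c-5p, the single member that lies next to miR-99a, had 618, 585 and 623 reads in A549 against 1956, 974 and 1010 in BEAS-2B. Its log2 ratio was -1.23, -0.94 and -0.45. let-7a-5p had 7991, 8011 and 9667 reads in A549 against 21110, 13537 and 13067 in BEAS-2B, with log2 ratios of -0.97, -0.96 and -0.19. let-7f-5p had 12547, 12609 and 11830 reads in A549, with log2 ratios of -0.75, -0.79 and -0.46. For these 3 members, and for let-7b-5p, let-7d-5p and let-7g-5p as well, the gap between the lines was narrowest at 5 ng/mL. That of let-7i-5p, which was higher in A549, was widest at that dose.

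let-7g-5p had 9031, 8694 and 8148 reads in A549 against 15177, 11428 and 10027 in BEAS-2B, and its log2 ratios of -0.31, -0.60 and -0.05 were the smallest among the members that reached the expression minimum. miR-98-5p had log2 ratios of 0.05, -0.06 and 0.05, with a 95% interval of -0.20 to 0.30 in the control comparison. With the expression minimum and a fold of at least 1.4 as criteria, 6 members passed in the control comparison (1 higher in A549, 5 lower), where 68.9% of all miRNAs that reached the minimum passed (40.7% higher, 28.1% lower). At 1 ng/mL 7 passed (1 higher, 6 lower), where 64.3% of all passed (38.5% higher, 25.9% lower), and at 5 ng/mL 3 passed (let-7i-5p higher, let-7b-5p and let-7d-5p lower), where 67.8% did (38.4% higher, 29.5% lower). Over the 3 doses the lines did not overlap for 7 of 8 members (1 higher in A549, 6 lower), against 59.2% of all miRNAs that reached the minimum (35.7% higher, 23.6% lower). The member that did overlap, miR-98-5p, was below that minimum in every library.

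In edgeR's quasi-likelihood test of cell line with dose as a term, 6 of 8 members had an adjusted p under 0.05, where 48.2% of the 434 miRNAs tested did. One was higher in A549, let-7i-5p, by 1.73 ± 0.19 (log2, standard error, adjusted p = 0.000595 in edgeR), and 29.5% of all tested were called in that direction. The 5 lower ones, against 18.7% of all tested, were let-7b-5p (-1.49 ± 0.18, edgeR adjusted p = 0.000773), let-7d-5p (-1.46 ± 0.27, 0.00491), let-7c-5p (-0.87 ± 0.22, 0.0143), let-7f-5p (-0.67 ± 0.18, 0.0192) and let-7a-5p (-0.71 ± 0.22, 0.0327). let-7g-5p (-0.32 ± 0.19, edgeR adjusted p = 0.196) and miR-98-5p (0.01 ± 0.22, 0.971) did not pass. The median log2 difference of the 8 members was -0.69 and that of all miRNAs tested was 0.11. The 3 doses stand in for replicates in this test, which leaves 2 residual degrees of freedom. The spread they give is how the line difference varies with dose and not between repeat cultures. The fit also draws the spread of each miRNA toward a trend over all miRNAs tested. The standard errors and p-values thus do not rest on the 3 doses of that miRNA alone. With dose as a term, leaving out either library of a dose removes that dose from the line difference. Both leave-outs at a dose are thus nearly the same check, with fewer residual degrees of freedom. let-7i-5p and let-7b-5p passed whichever library was left out. Without the A549 library at 1 ng/mL, or without the BEAS-2B one, only these 2 passed. Without the BEAS-2B control, let-7d-5p passed beside them and let-7a-5p, let-7c-5p and let-7f-5p did not. Without the A549 control, let-7a-5p did not pass.

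The family sum joins let-7i-5p, which was higher in A549, with members that were mostly lower. The sum was 85764, 91898 and 83489 reads in A549 against 98814, 67154 and 65812 in BEAS-2B. The log2 ratio of the sum, A549 over BEAS-2B, was 0.23, 0.25 and 0.59 after TMM scaling, but total-count scaling turned the control value to -0.31 and the 1 ng/mL value to -0.0019, so no direction can be given for the sum without TGF-β1. The highest normalised sum of the 6 libraries was 1.51 times the lowest.

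The other strand of each hairpin, the 3p arm, gives a second readout of the same precursor and in part separates the loci of a mature strand that has several. Of 10 arms, 6 had a mean normalised count of at least 10 and were compared. let-7b-3p had 40, 41 and 46 reads in A549 against 228, 103 and 162 in BEAS-2B, and let-7d-3p had 52, 67 and 61 against 322, 121 and 201. Both were lower in A549 in every library, as their 5p strands were, by -1.72 ± 0.28 (edgeR adjusted p = 0.00272) and -1.57 ± 0.31 (0.00545). let-7a-3p, which let-7a-1 and let-7a-3 both give, was lower by -0.93 ± 0.22 (edgeR adjusted p = 0.0109). let-7i-3p, with 30, 17 and 18 reads in A549 against 13, 11 and 5 in BEAS-2B, was higher by 1.34 ± 0.43 (edgeR adjusted p = 0.037). Each of these arms differed in the direction of its 5p strand. As for the members, leaving out either library of a dose gives nearly the same check. let-7b-3p and let-7d-3p passed whichever library was left out, and let-7a-3p passed except without either library at 1 ng/mL (edgeR adjusted p = 0.155 without that of A549 and 0.163 without that of BEAS-2B). let-7i-3p did not pass once any single library was left out (edgeR adjusted p from 0.0688 to 0.163), nor in DESeq2 (adjusted p = 0.158) or under total-count scaling (0.099 in edgeR).

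The 2 hairpins that give let-7f-5p have 3p arms that are counted apart. These counts do not give the share of let-7f-5p reads that came from each hairpin. let-7f-1-3p, from the chromosome 9 cluster, had 12, 17 and 20 reads in A549 against 73, 39 and 62 in BEAS-2B and was lower in A549 by -1.63 ± 0.34 (edgeR adjusted p = 0.00658, or 0.0702 and 0.0687 without the 1 ng/mL library of A549 or of BEAS-2B). let-7f-2-3p, from the X chromosome intron that also holds miR-98, had 26, 19 and 21 reads in A549 against 34, 28 and 32 in BEAS-2B, and the difference of -0.35 ± 0.33 did not pass (edgeR adjusted p = 0.419). Within a library, let-7f-1-3p over let-7f-2-3p was 0.462 (95% interval 0.212 to 0.948), 0.895 and 0.952 in A549, and 2.15 (1.41 to 3.33), 1.39 and 1.94 in BEAS-2B. The A549 ratios lay below 1 and the BEAS-2B ratios above 1, although some intervals included 1. The strands read from chromosome 9 (let-7d-5p, let-7d-3p and let-7f-1-3p) were lower in A549, while those from HUWE1 (miR-98-5p and let-7f-2-3p) did not pass the test. A difference between the 2 loci was not tested.

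**Figure D3:**
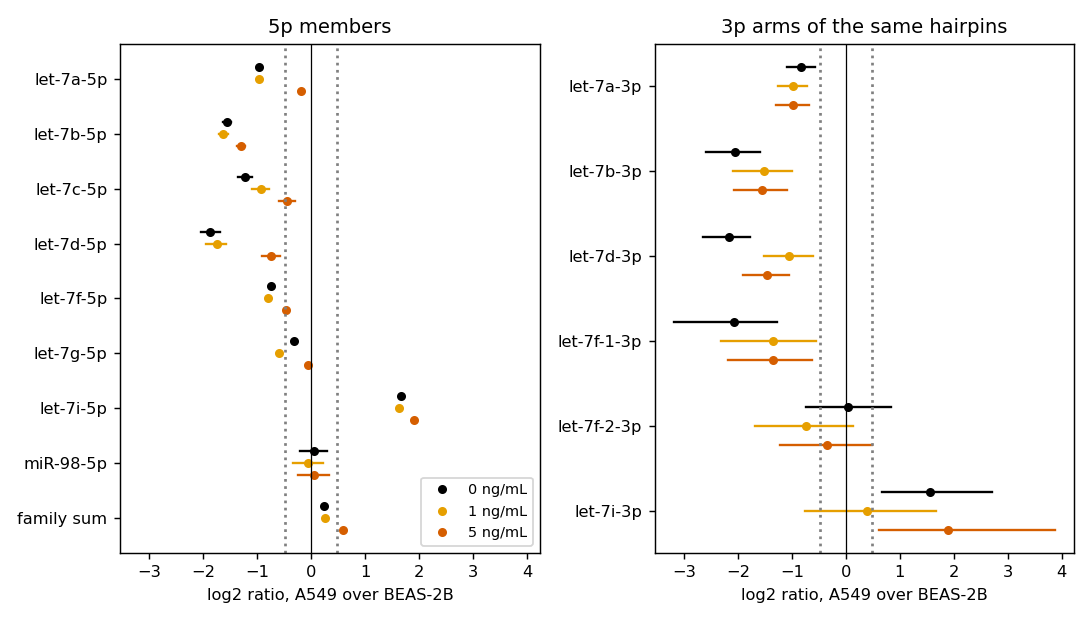
Log2 ratio of A549 over BEAS-2B at each TGF-β1 dose for the 8 members and their sum (left) and for 6 3p arms (right), with bars for 95% counting intervals and dotted lines at 1.4-fold. let-7i-5p and let-7i-3p lie to the right of 0 and the b, d and f-1 strands to the left, while the intervals of miR-98-5p and let-7f-2-3p include 0 at every dose.

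The read counts of the arms were far from equal, and reads of different sequences were not calibrated to molecule numbers. let-7i-5p outnumbered let-7i-3p by 1521 to 3519 times, while let-7d-5p outnumbered let-7d-3p by 4.39 to 7.73 times. let-7g-3p had 0 or 1 reads in each library beside 8148 to 15177 reads of let-7g-5p. let-7a-2-3p, let-7c-3p and miR-98-3p had between 0 and 14 reads. At such counts the intervals are wide, and of their line ratios only that of let-7a-2-3p in the controls, with 2 reads in A549 and 14 in BEAS-2B, had an interval that excluded 0 (log2 -1.93, -5.55 to -0.25).

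The treatment comparison asked whether TGF-β1 changes the family, and in each treated library at least 7 of 8 members were within 1.4-fold of the control or below the expression minimum. All members but miR-98-5p reached the expression minimum in each of these comparisons. In A549 at 1 ng/mL, 0 of 8 members passed the criteria, where 48.9% of all miRNAs that reached the minimum did. The log2 ratios of the members lay between -0.26 (let-7b-5p) and 0.12 (let-7i-5p). At 5 ng/mL let-7d-5p alone passed, where 53.2% of all miRNAs passed and 27.0% were higher. Its count went from 318 to 445, a log2 ratio of 0.64 with a 95% interval of 0.44 to 0.86, which includes folds below 1.4. let-7a-5p was next, at 0.44 (0.39 to 0.48) and short of the criterion, and the remaining members lay between -0.14 and 0.17.

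In BEAS-2B at 1 ng/mL, 0 of 8 members passed, where 29.2% of all miRNAs did, and the log2 ratios ran from -0.42 (let-7c-5p) to 0.18 (let-7g-5p). At 5 ng/mL all 8 ratios were below 0. let-7c-5p alone passed, at -0.60 (95% interval -0.71 to -0.49), where 36.0% of all miRNAs passed and 16.0% were lower. let-7d-5p, at -0.48, lay just outside the criterion, and let-7i-5p was nearest to 0 among the members that reached the minimum, at -0.14. These values turn on the scaling. Division by total counts moves every BEAS-2B ratio at 5 ng/mL down by 0.41, and 8 members then passed, all lower. Division by the total without miR-21-5p moves it up by 0.18, and 0 passed. In A549 at 5 ng/mL let-7d-5p passed under 5 of the 6 other scalings, and let-7a-5p beside it under 2 of them.

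**Figure D4:**
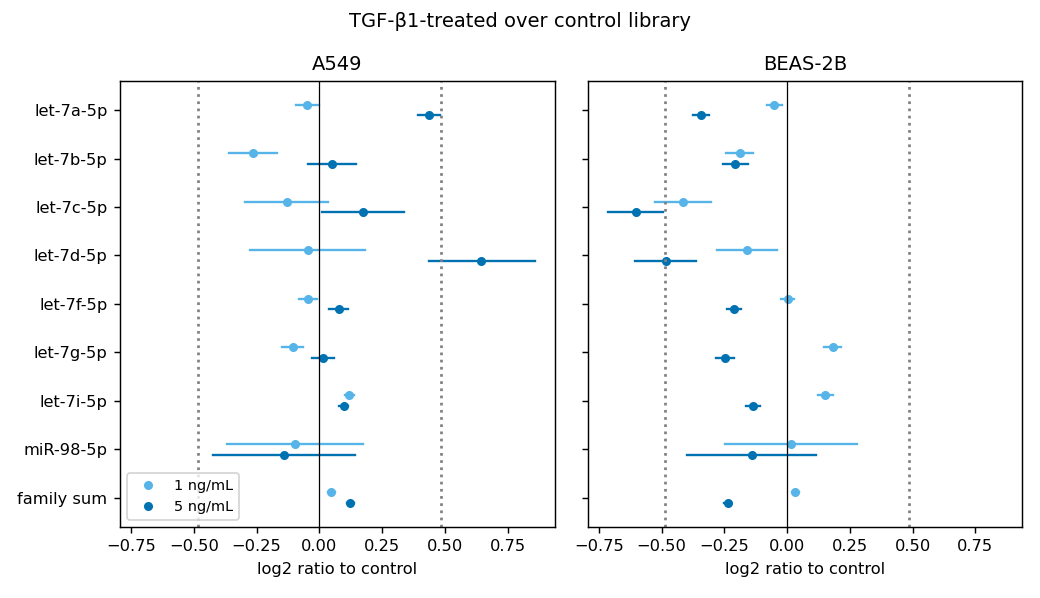
Log2 ratio of each TGF-β1 library to the control library of its line, with bars for 95% counting intervals and dotted lines at 1.4-fold. let-7d-5p at 5 ng/mL lies beyond the line in A549 (0.64) and let-7c-5p in BEAS-2B (-0.60).

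Over both lines, 0 of 8 members passed edgeR's quasi-likelihood test of treated against control libraries with cell line as a term, where 4.38% of 434 miRNAs did, and 0 had an unadjusted p under 0.05. DESeq2 also called 0 of 8. The fitted log2 differences ran from -0.25 ± 0.19 for let-7c-5p (edgeR adjusted p = 0.458) to 0.06 ± 0.16 for let-7i-5p (0.844), with a median of -0.04 for the members and 0.06 for all miRNAs. let-7d-5p was above its control in A549 and below it in BEAS-2B at 5 ng/mL, and its fitted value was -0.01 ± 0.26 (edgeR adjusted p = 0.995). A test of whether the response differs between the lines, added after the data were seen, gave 0.65 ± 0.40 for let-7d-5p and 0.54 ± 0.33 for let-7c-5p (edgeR adjusted p = 0.424 for both), and 0 of 8 members passed where 2.41% of 497 miRNAs did. A bulk library cannot tell a change in every cell from a change in the share of cells that express a miRNA.

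The family sum, as a share of all reads, was 10.9%, 10.2% and 13.2% in A549 against 13.4%, 10.2% and 8.58% in BEAS-2B, which is lower at each higher dose in BEAS-2B. As a share of reads without miR-21-5p it was 23.2%, 23.7% and 25.1% in A549 against 20.8%, 21.9% and 20.02% in BEAS-2B, and no such order was present. The miR-21-5p share was 35.4%, 53.3% and 57.2% in the same BEAS-2B libraries.

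**Figure D5:**
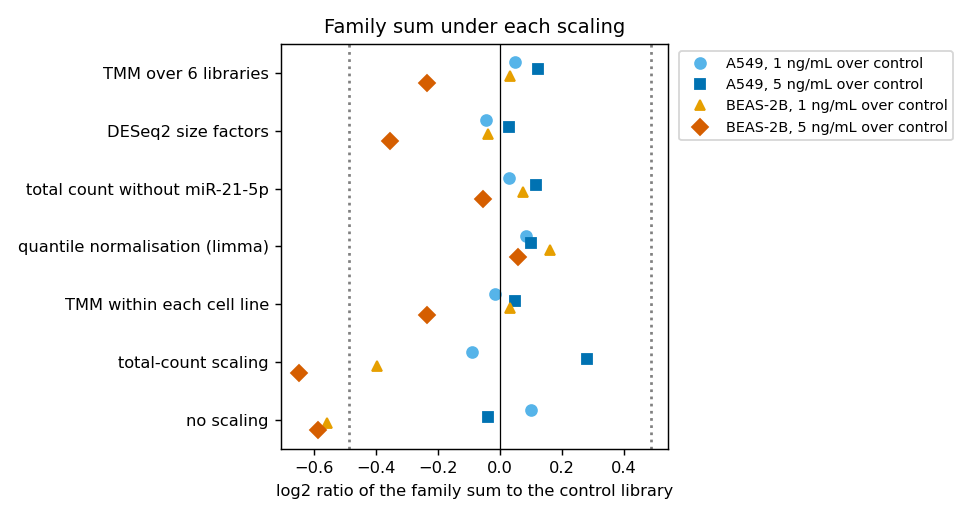
Log2 ratio of the family sum to the control library under 7 scalings, with dotted lines at 1.4-fold. In BEAS-2B at 5 ng/mL it runs from -0.65 (total count) to 0.06 (quantile), and in A549 it stays between -0.09 and 0.28.

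Some ratios between the counts of members in a library, which no library-wide scaling factor changes, differed between doses by more than counting error. Quantile normalisation can change them. In A549, let-7i-5p over let-7a-5p was 6.65 (95% interval 6.49 to 6.81), 7.47 and 5.26 (5.15 to 5.37) from control to 5 ng/mL, and let-7f-5p over let-7a-5p was 1.57, 1.57 and 1.22. let-7a-3p had 173, 179 and 133 reads there, so that let-7a-5p over let-7a-3p was 46.2 (39.7 to 54.0), 44.8 and 72.7 (61.3 to 86.9). In BEAS-2B the same ratio was 50.7, 44.1 and 41.7. When let-7a-5p was summed with let-7b-5p, let-7c-5p and let-7f-5p, from which it can be hard to separate, the A549 ratio at 5 ng/mL was 0.21 in place of 0.44. In BEAS-2B, let-7c-5p over let-7b-5p was 0.260 (0.247 to 0.273), 0.222 and 0.197 (0.184 to 0.211) at 0, 1 and 5 ng/mL. In A549 it was 0.326, 0.358 and 0.355. let-7b-5p and let-7c-5p differ at 1 base, so they too can be hard to separate, which the intervals do not cover.

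let-7c-5p shares its host transcript with miR-99a, and miR-99a-5p was also below its control in BEAS-2B. miR-99a-5p had 26190, 10595 and 11167 reads there and 6168, 5683 and 5255 reads in A549. Its BEAS-2B log2 ratios of -0.72 and -0.88 passed the criteria, where 29.2% and 36.0% of all miRNAs did. In A549 the log2 ratios were -0.13 and 0.17 for let-7c-5p and -0.17 and -0.07 for miR-99a-5p. Within a library, let-7c-5p over miR-99a-5p was 0.0747 (95% interval 0.0713 to 0.0782), 0.0919 and 0.0904 in BEAS-2B, and 0.100, 0.103 and 0.119 in A549. A shared response of the pair was not tested. miR-125b-2-3p, from the third hairpin of that cluster, had 83, 18 and 19 reads in BEAS-2B, log2 ratios of -1.57 and -1.72, and 20, 14 and 6 in A549. In the treatment test, miR-99a-5p gave -0.47 ± 0.18 (edgeR adjusted p = 0.161) and miR-125b-2-3p -1.40 ± 0.35 (0.068), so neither passed. Of the neighbours of let-7a-2 on chromosome 11, miR-125b-1-3p and miR-100-5p had ratios above 0 in both lines. miR-125b-5p did not, with log2 ratios of 0.56 and 0.68 in A549 but 0.09 and -0.23 in BEAS-2B. Its A549 ratios passed the criteria, where 48.9% and 53.2% of all miRNAs did. DESeq2 factors and total-count scaling shift its A549 ratio at 1 ng/mL by -0.095 and -0.14, and each takes it below the criterion. miR-125b-1-3p had 111, 242 and 287 reads in A549 against 252, 308 and 349 in BEAS-2B and rose by 1.07 ± 0.24 (edgeR adjusted p = 0.0428). That call was lost without the A549 control (edgeR adjusted p = 0.11), without A549 at 1 or 5 ng/mL (0.131 and 0.105), without BEAS-2B at 1 ng/mL (0.16), under RLE (0.0547) or total-count scaling (0.226), with 3 dose levels (0.136) and without the cell line block (0.983), with log2 differences between 0.82 and 1.18. miR-100-5p had log2 ratios of 0.73 and 0.55 in A549 against 0.19 and 0.07 in BEAS-2B. let-7a-2-3p, the arm of the let-7 hairpin between them, had 2, 9 and 7 reads in A549 against 14, 7 and 10 in BEAS-2B.

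let-7e-5p, which lies on chromosome 19 and differs from let-7a-5p by U9G, had 2237, 2804 and 2840 reads in A549 against 2217, 1988 and 2475 in BEAS-2B. Its log2 ratios at 5 ng/mL were 0.51 in both lines, and those at 1 ng/mL were 0.27 and 0.43. Those at 5 ng/mL passed the criteria, where 53.2% of all miRNAs did in A549 and 36.0% in BEAS-2B. Both 95% intervals at 5 ng/mL, 0.43 to 0.59, include folds below 1.4. DESeq2 factors shift these ratios by -0.092 in A549 and -0.119 in BEAS-2B, which takes both below the criterion, while some other scalings do not. Its treatment difference of 0.43 ± 0.15 did not pass (edgeR adjusted p = 0.144), and a difference from the 8 members was not tested.

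The miRNAs whose levels followed the family sum most closely over the 6 libraries were miR-30e-3p, miR-339-3p and miR-3184-3p. Their root mean square distance from it, on centred ND, was 0.142, 0.146 and 0.152 among 149 miRNAs that reached an ND of 8 in at least 1 library. The sum varied only 1.51-fold, so this picks out miRNAs with a similarly small range.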

How the data were processed

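Per the labels, Trizol-extracted total RNA was made into libraries with the NEBNext Multiplex Small RNA kit. The deposited files hold unnormalised counts of reads for each mature miRNA, and the authors made 1 file for each of 6 libraries. The submitters' processing notes name Bowtie2 and bedtools. Their versions and roles, the genome build, the miRNA release and the handling of reads with several matches were not given in the sources used here. Depth was 633318 to 900424 counts per library.

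Counts were scaled by TMM over 2588 miRNAs (edgeR 4.0.16, R 4.3.3) to the mean effective library size of 749498. ND was log2(normalised count + 1). A comparison passed at an ND of at least 8 in the greater library and a fold of at least 1.4, the thresholds of the study. Intervals of ratios and shares are 95% exact (Clopper-Pearson). Quasi-likelihood tests in edgeR used filterByExpr and Benjamini-Hochberg adjustment over all miRNAs tested, at 0.05, with dose as a term for cell line (2 residual degrees of freedom) and cell line as a term for treatment (3). The treatment test pools both doses as treated, so the lines and the doses within a line stand in for replicates. All tests were two-sided and the scripts were tested on simulated data.

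DESeq2 1.42.0, limma 3.58.1, other scalings, thresholds, pseudocounts, filters, summed members and leaving out each library were alternatives. The interaction test was added after seeing the data. Members and lists were chosen with earlier results of these data known. Named miRNAs were the 8 members, let-7e-5p, 3p arms, seed relatives, hairpin neighbours and the 3 nearest to the family sum. miR-202-3p, listed as a seed relative, had 0 reads in every library. Figures were drawn with matplotlib.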

Additional observations from a re-analysis of the deposited data

Results flagged for a closer look

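let-7d-3p and let-7f-2-3p went one way in both TGF-β1 libraries of A549 and the opposite way in both of BEAS-2B. They were picked for these opposite signs, so the tests below use the values that chose them. Of the ratios below, only those of let-7d-3p in BEAS-2B had 95% intervals that excluded 0. let-7d-3p had log2 ratios of 0.31 and 0.39 in A549 at 1 and 5 ng/mL, while in BEAS-2B they were -0.82 and -0.33, a gap of 0.71 between the lines at 5 ng/mL. The difference itself, tested in edgeR over both doses, was 0.90 ± 0.46 and did not pass (adjusted p = 0.367). let-7f-2-3p had -0.48 and -0.14 in A549, while BEAS-2B gave 0.30 and 0.25, a gap of -0.39, at 19 to 34 reads per library, and did not pass either (edgeR adjusted p = 0.653). Both doses of a line share 1 control library, so the agreement of doses is not independent.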

How the results depend on the processing

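The cell line test called 6 of 8 members under DESeq2, RLE or total-count scaling, without a filter and without dose, and 2 to 6 when 1 library was left out (80 to 196 of all miRNAs). The treatment test called 0 of 8 under every alternative run, leaving out each library included, while calls over all miRNAs were 42 (DESeq2), 3 (total count), 43 (no filter), 0 (no cell line block, 19 at an unadjusted p under 0.05), 8 (5 ng/mL over control with 3 dose levels) and 6 to 84 with a library left out. The labels carry no replicate numbers, so no replicate block was fitted beyond the dose and cell line terms.

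Members past the criteria changed as follows. In A549 at 1 ng/mL the count was 1 under quantile normalisation. In A549 at 5 ng/mL it was 2 under total-count or quantile scaling and 0 unscaled, at 2-fold, or with the interval wholly beyond 1.4-fold. In BEAS-2B at 1 ng/mL it was 1 (DESeq2 factors), 3 (total count) and 6 (unscaled). In BEAS-2B at 5 ng/mL it was 2 (DESeq2 factors), 8 (total count or unscaled) and 0 (without miR-21-5p, or at 2-fold). Between lines it was 8 (total count), 7 (unscaled) and 4 (2-fold) in the controls, 4 (quantile), 6 (unscaled) and 3 (2-fold) at 1 ng/mL, and 5 (without miR-21-5p, quantile or unscaled) and 2 (2-fold) at 5 ng/mL.

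The family sum moved beyond counting error under nearly every scaling. With DESeq2 factors, total count, total without miR-21-5p, quantile, TMM within a line and no scaling, in that order, the log2 ratio in A549 at 1 ng/mL was -0.047, -0.090, 0.029, 0.083, -0.017 and 0.10. In A549 at 5 ng/mL, where the third did not move it, it was 0.030, 0.28, 0.099, 0.050 and -0.039. In BEAS-2B, where TMM within the line left it alone, it was -0.040, -0.39, 0.074, 0.16 and -0.56 at 1 ng/mL and -0.36, -0.65, -0.055, 0.059 and -0.59 at 5 ng/mL, or -0.22 with let-7e-5p. A549 over BEAS-2B gave, in the same order without TMM within a line, 0.18, -0.31, 0.16, 0.25 and -0.20 in the controls, 0.17, -0.0019, 0.11, 0.18 and 0.45 at 1 ng/mL, and 0.57, 0.62, 0.33, 0.29 and 0.34 at 5 ng/mL. With let-7e-5p in the sum, let-7i-5p held 60.4%, 63.2% and 58.9% in A549, while the BEAS-2B values were 22.4%, 24.2% and 23.7%.

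Signs that turned belonged to values that had passed no test or criterion, except let-7g-5p between lines at 1 ng/mL (0.15 under quantile scaling). For miR-98-5p the line difference became -0.040 (DESeq2 or RLE) and -0.24 (total count), and ran from -0.043 to 0.048 with a library left out. The treatment difference of let-7a-5p became -0.086 (RLE or DESeq2), -0.20 (total count) and -0.040 (no block), and that of let-7i-5p -0.032 (RLE or DESeq2), -0.15 (total count) and -0.017 (dose levels). That of let-7d-5p became 0.10 (dose levels). With a library left out these differences ran from -0.22 to 0.13 for let-7a-5p, -0.011 to 0.080 for let-7i-5p, -0.34 to 0.26 for let-7d-5p and -0.13 to 0.0026 for let-7g-5p. The cause of these changes was not tested, beyond the shift each scaling applies. With 1 library per group, counting intervals leave out variation between cultures, and 3p arms under about 30 reads limit what the loci can show.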
